A study of Mus musculus with 2 samples.

Results

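The adhesion G protein-coupled receptors of the mouse liver were followed here through 8 genes, *Adgrl2*, *Adgrl4*, *Adgrf5*, *Adgrg6*, *Adgrg1*, *Adgrg3*, *Adgre1* and *Adgre5*, in the nonparenchymal cells (NPCs) of mice with diet-induced nonalcoholic steatohepatitis (NASH) and of control mice. They were chosen by name, from the 29 genes of the family among the 16383 genes analysed here. They were read in all cells with at least 500 UMIs and 200 genes (a UMI is the molecular tag that marks 1 captured transcript). The NASH library came from male C57BL/6 mice that received a methionine- and choline-deficient (MCD) diet for 6 weeks from 8 weeks of age, and the control library from mice of the same strain, sex and age on the control diet. The NPCs of 3 mice were pooled per diet, so each diet has 1 library, the mice cannot be separated, and there is no replicate check on any difference between diets. The MCD diet produces steatohepatitis without obesity, which limits it as a model of the human disease.

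Adhesion G protein-coupled receptors join a long extracellular region, which holds adhesion domains and a site of self-cleavage, to a membrane-spanning region that signals through G proteins. Many bind matrix proteins or proteins of neighbouring cells, and a short tethered stretch at the cleavage site can act as the agonist. In liver, members of the family are best known from endothelium and from macrophages. Liver sinusoidal endothelial cells (LSECs) line the sinusoids with a fenestrated wall, vascular endothelial cells (VECs) line the larger vessels, and Kupffer cells are the resident macrophages attached to the sinusoid.

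After filtering, 3710 NASH and 4209 control cells were left, with a median of 1654 and 1683 UMIs per cell, and 21 cell labels occurred in both libraries. The cells formed 21 clusters, named by marker genes, with all genes of the receptor family kept out of the clustering. A name such as LSEC therefore stands for an LSEC-like class. All 15 listed LSEC markers had UMIs in the LSECs, which summed to 57322 CPM (UMIs of a gene scaled to the total UMIs of the cells summed) in the NASH and 63898 CPM in the control library. The LSECs fell into a cluster with *Lyve1* (735 NASH, 698 control cells) and one with *Aass* (802 and 538 cells) among their leading genes. The VECs fell into one with *Bmp4* (263 and 98 cells) and one led by the gap junction gene *Gja5* (104 and 81 cells). The *Aass* cluster held 52.2% of NASH and 43.5% of control LSECs, and the *Gja5* cluster held 28.3% (23.8 to 33.2) of NASH and 45.3% (37.8 to 52.8) of control VECs, so these clusters are also given singly. LSEC markers summed to 4201 CPM in NASH and 4706 CPM in control B cells. The list holds *Fcgr2b*, an Fc receptor gene not limited to LSECs, so this sum does not measure background alone. Intervals in parentheses are exact 95% intervals and cover counting error only, not the spread between mice. Levels are compared for the same gene across cells, and no order of levels between genes is read. A difference between diets is called past the fold where the CPM differ by 1.5-fold or more, a log2 ratio of 0.58, with at least 50 UMIs over both libraries.

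The members lie on 4 chromosomes of GRCm38. *Adgrl2* (148815583 to 148990555, minus strand) and *Adgrl4* (151437887 to 151545086, plus strand) lie on chromosome 3. *Adgrf5* (43360451 to 43459557) and *Adgre1* (57358691 to 57483527) lie on the plus strand of chromosome 17, and *Adgrg6* (14402583 to 14545659, minus strand) lies on chromosome 10. *Adgrg1* (94974751 to 95014217) and *Adgrg3* (95017692 to 95045250) are direct neighbours on the plus strand of chromosome 8, and *Adgre5* (83723251 to 83741326, minus strand) lies on the same chromosome. Exons of *Adgrl2*, *Adgrg6* and *Adgre5* overlap those of *Gm43573*, *Gm46212* and *Ddx39* on the other strand. No source used here says whether the counting kept strand, so reads in these overlaps may belong to either gene.

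Promoter windows from RefSeq (GRCm38.p6, 250 bases before to 50 after a start) were found for 6 of the 8 members, in 8 windows. The first 3 printed belong to *Adgrf5*, *Adgrl4* and *Adgrg3*, members whose levels went closely together over the cell classes, and the last to *Adgrg6*, which was held by the *Gja5* cluster. Each is printed 5′ to 3′ along its gene. Capitals mark AGGAAG or its reverse complement CTTCCT, a core bound by ETS factors, which are known for their part in endothelial genes. AGGAAG was searched on both strands, and no other motif was searched. It was found in 4 of the 8 windows, in windows of 4 of the 6 members, and in 11613 of 32851 promoters of the table (35.4%). Not printed are another window of *Adgrf5* and the windows of *Adgrg1*, all without a match, and the window of *Adgrl2*, with 1 match. The levels of *Adgrl2* also went closely with those of *Adgrf5* and *Adgrl4* (r 0.86 to 0.90 over both libraries). The printed windows are thus a choice, and no contrast between members is read from them.
Adgrf5 (chr17:43360181-43360480, plus strand): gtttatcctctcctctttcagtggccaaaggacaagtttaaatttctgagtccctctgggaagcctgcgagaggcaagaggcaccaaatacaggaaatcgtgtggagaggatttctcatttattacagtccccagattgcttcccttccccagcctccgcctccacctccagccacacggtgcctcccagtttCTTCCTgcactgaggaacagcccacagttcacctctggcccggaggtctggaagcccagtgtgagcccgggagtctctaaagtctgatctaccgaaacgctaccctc
Adgrl4 (chr3:151437632-151437931, plus strand): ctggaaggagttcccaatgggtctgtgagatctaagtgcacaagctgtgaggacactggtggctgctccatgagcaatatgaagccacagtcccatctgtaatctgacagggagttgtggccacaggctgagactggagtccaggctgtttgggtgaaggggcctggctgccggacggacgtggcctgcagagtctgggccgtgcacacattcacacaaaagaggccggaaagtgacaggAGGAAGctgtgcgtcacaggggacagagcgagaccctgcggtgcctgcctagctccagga
Adgrg3 (chr8:95017442-95017741, plus strand): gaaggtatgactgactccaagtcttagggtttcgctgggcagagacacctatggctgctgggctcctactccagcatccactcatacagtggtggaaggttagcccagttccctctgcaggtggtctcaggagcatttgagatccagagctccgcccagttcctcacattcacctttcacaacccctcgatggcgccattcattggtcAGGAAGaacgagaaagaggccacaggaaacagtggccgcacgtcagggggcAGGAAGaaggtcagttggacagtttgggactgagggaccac
Adgrg6 (chr10:14544987-14545286, minus strand): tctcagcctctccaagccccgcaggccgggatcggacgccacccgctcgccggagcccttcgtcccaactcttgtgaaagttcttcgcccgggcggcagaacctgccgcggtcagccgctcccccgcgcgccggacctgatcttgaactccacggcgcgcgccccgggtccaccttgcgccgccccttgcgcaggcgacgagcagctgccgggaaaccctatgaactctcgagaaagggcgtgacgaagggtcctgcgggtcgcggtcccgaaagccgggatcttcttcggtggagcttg

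**Figure D1:**
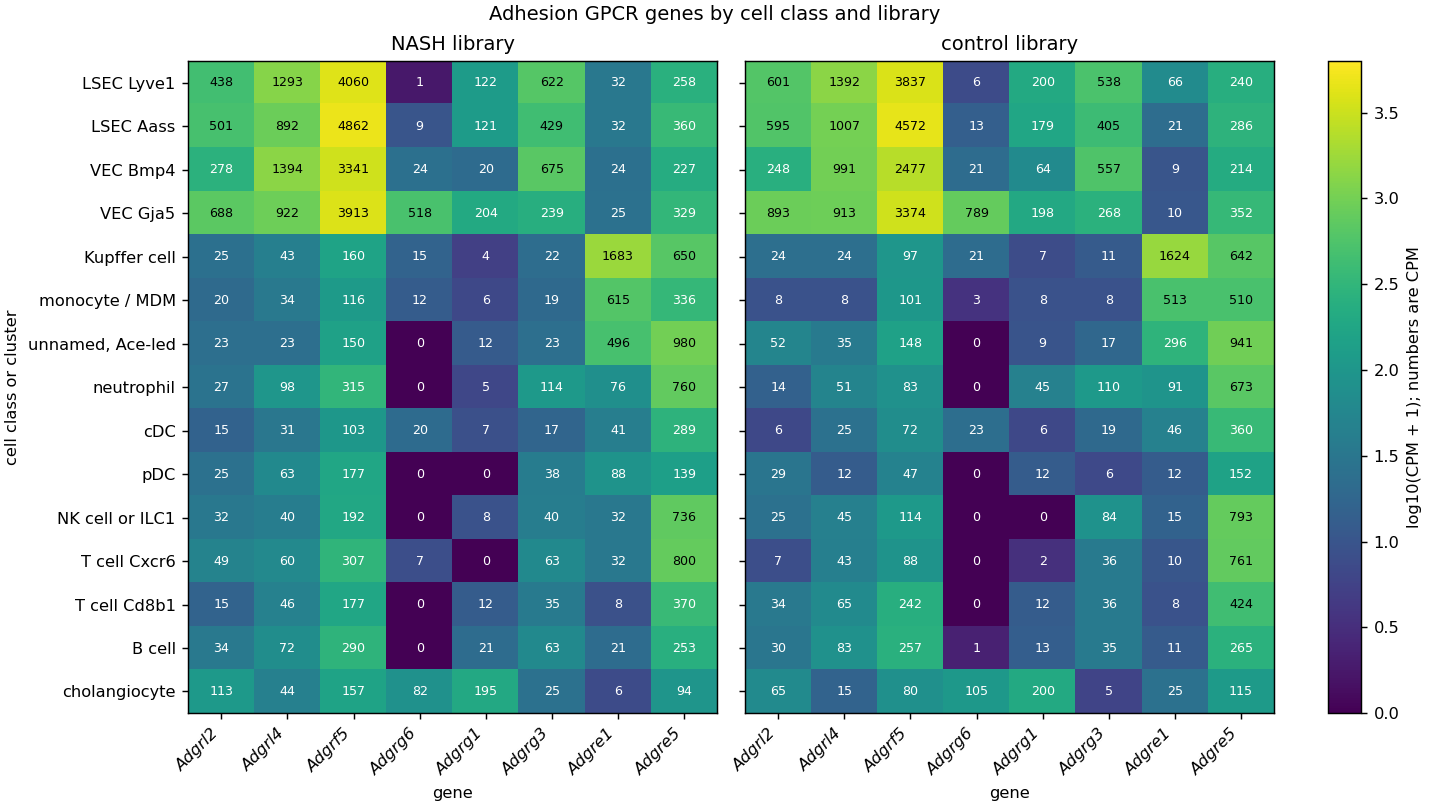
Level of each of the 8 members in CPM (numbers, with log10 of CPM + 1 as colour) in each cell class or cluster of the NASH library (left) and the control library (right). 6 members are highest in endothelial clusters or in cholangiocytes, *Adgre1* is highest in Kupffer cells, and *Adgre5* is spread over leukocytes. Colours compare cells within a gene, not genes.

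*Adgrf5*, *Adgrl4* and *Adgrg3* marked both LSECs and VECs. *Adgrf5*, also known as GPR116, is known from endothelium and for the control of lung surfactant. In the *Aass* cluster of LSECs it was at 4862 CPM (4708 to 5019) in the NASH library, against 4572 CPM (4403 to 4746) in the control. In the *Lyve1* cluster it was at 4059.8 CPM (3953 to 4168) in the NASH library, against 3837 CPM (3745 to 3931) in the control. Its level was thus higher in the *Aass* than in the *Lyve1* cluster in both libraries, with intervals that do not overlap. The *Bmp4* cluster of VECs held 3341 CPM (3214 to 3472) in the NASH library, against 2477 CPM (2309 to 2653) in the control, a log2 ratio of NASH to control of 0.43 (0.32 to 0.55). The *Gja5* cluster held 3913 CPM (3644 to 4197) in the NASH library, against 3374 CPM (3126 to 3638) in the control, a log2 ratio of 0.21 (0.06 to 0.36). In both clusters of VECs the NASH level was the higher beyond counting error, by less than 1.5-fold. In the LSECs as a class the ratio was 0.11 (0.07 to 0.15), so the diets differed by little there. Shares of cells with a UMI were taken at equal depth, from cells with at least 1000 UMIs thinned to that number. This left out shallower cells, and kept 667 of 735 NASH and 658 of 698 control cells of the *Lyve1* cluster, but only 329 of 802 NASH and 289 of 538 control cells of the *Aass* cluster. Of the B cells 130 of 194 NASH and 438 of 627 control cells were kept. *Adgrf5* was detected in 96.4% (94.7 to 97.7) of NASH and 96.8% (95.2 to 98.0) of control cells of the *Lyve1* cluster and in 98.8% (96.9 to 99.7) of NASH and 96.5% (93.7 to 98.3) of control cells of the *Aass* cluster. B cells, which should lack it, gave 12.3% (7.20 to 19.2) of NASH and 8.90% (6.41 to 12.0) of control cells. Before thinning, *Adgrf5* was detected in 98.0% of NASH and 98.3% of control LSECs (median 1215 and 1599 UMIs), and in 12.9% of NASH and 8.93% of control B cells (median 1142.5 and 1120 UMIs). *Adgrf5* was therefore found in nearly every LSEC, far above the B cell background.

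*Adgrl4*, also known as ELTD1, is an endothelial receptor linked to vessel growth. In the *Lyve1* cluster it was at 1293 CPM (1233 to 1354) in the NASH library, against 1392 CPM (1337 to 1449) in the control, and in the *Aass* cluster at 892 CPM (827 to 961) in the NASH library, against 1007 CPM (928 to 1089.8) in the control. The order of the 2 LSEC clusters was thus opposite to that of *Adgrf5* in both libraries. In the *Bmp4* cluster of VECs it was at 1394 CPM (1313 to 1479) in the NASH library, against 991 CPM (886 to 1105) in the control, a log2 ratio of 0.49 (0.31 to 0.68). It was detected in 74.2% (68.5 to 79.4) of NASH and 53.8% (43.1 to 64.2) of control cells of that cluster at 1000 UMIs, against 5.38% of NASH and 3.88% of control B cells. This was higher in NASH by level and by share, although short of 1.5-fold in level. In the *Gja5* cluster the ratio was 0.01 (-0.29 to 0.32), and in LSECs it was -0.17 (-0.25 to -0.09). The endothelial cells were also clustered again. In the subclusters led by *Msr1*, *Gm10600* and *8430408G22Rik* *Adgrl4* was at 1218, 825 and 1275 CPM in NASH, against 1391, 857 and 1144 CPM in the control. The subcluster with most VEC markers had 1400 CPM in NASH, against 1144 CPM in the control. The NASH level of *Adgrl4* was therefore higher in 1 VEC cluster and slightly lower in LSECs as a class, but not lower in each of these subclusters. The difference between these ratios was not tested.

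*Adgrg3*, also known as GPR97, is known from granulocytes. Here it was mainly a gene of endothelium. In the *Bmp4* cluster it was at 675 CPM (618 to 735) in the NASH library, against 557 CPM (479 to 644) in the control, and in the *Lyve1* cluster at 622 CPM (581 to 665) in the NASH library, against 538 CPM (504 to 573) in the control. In the *Aass* cluster it was lower, at 429 CPM (385 to 478) in the NASH library, against 405 CPM (356 to 459) in the control, and it was lowest of the 4 in the *Gja5* cluster, at 239 CPM (176 to 317) in the NASH library, against 268 CPM (201 to 349.6) in the control. The *Bmp4* and *Lyve1* clusters did not differ beyond counting error in either library. At 1000 UMIs per cell it was detected in 40.9% (37.2 to 44.8) of NASH and 38.6% (34.9 to 42.4) of control cells of the *Lyve1* cluster. B cells gave 4.62% (1.71 to 9.78) of NASH and 2.28% (1.10 to 4.16) of control cells. By diet its log2 ratios were 0.21 (0.07 to 0.35) in the *Lyve1*, 0.08 (-0.16 to 0.33) in the *Aass*, 0.28 (0.03 to 0.53) in the *Bmp4* and -0.16 (-0.76 to 0.42) in the *Gja5* cluster. None of the 4 reached 1.5-fold. The direction in LSECs turned when the endothelial cells were clustered again. In the 3 largest subclusters of that clustering, which are led by *Msr1*, *Gm10600* and *8430408G22Rik*, *Adgrg3* had log2 ratios of -0.42 (-0.71 to -0.15), -0.40 (-0.68 to -0.11) and -0.08 (-0.48 to 0.37).

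*Adgrl2* encodes latrophilin-2, a receptor that binds teneurins and FLRT proteins. Its level was highest in the *Gja5* cluster, at 688 CPM (578 to 813) in the NASH library, against 893 CPM (768 to 1034) in the control, a log2 ratio of -0.38 (-0.71 to -0.05). LSECs held less of it. The *Lyve1* cluster was at 438 CPM (404 to 475) in the NASH library, against 601 CPM (565 to 639) in the control, a log2 ratio of -0.46 (-0.60 to -0.31), and the *Aass* cluster at 501 CPM (453 to 554) in the NASH library, against 595 CPM (535 to 659.8) in the control, a log2 ratio of -0.25 (-0.46 to -0.04). The *Bmp4* cluster was the lowest, at 278 CPM (242 to 317) in the NASH library, against 248 CPM (197 to 308) in the control, a log2 ratio of 0.16 (-0.21 to 0.55). In 3 of the 4 endothelial clusters the NASH level was the lower beyond counting error, each time by less than 1.5-fold. In the subclusters led by *Msr1*, *Gm10600* and *8430408G22Rik* the log2 ratios were -0.02 (-0.24 to 0.19), -0.43 (-0.70 to -0.15) and -0.08 (-0.57 to 0.48), so *Adgrl2* was lower in NASH beyond counting error in 1 of these 3. At 1000 UMIs *Adgrl2* was detected in 34.5% (30.9 to 38.2) of NASH and 43.6% (39.8 to 47.5) of control cells of the *Lyve1* cluster, with intervals that do not overlap, and in 2.31% of NASH and 2.28% of control B cells.

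*Adgrg1* encodes GPR56, a receptor for collagen III that is known from neural progenitors and cytotoxic lymphocytes. In LSECs it was lower in the NASH library, with 260 UMIs, 121 CPM (107 to 137), against 452 UMIs, 194 CPM (177 to 213), in the control. The log2 ratio was -0.68 (-0.90 to -0.45), past the fold. Both LSEC clusters had this direction. In the *Lyve1* cluster it was at 122 CPM (104 to 142) in the NASH library, against 199.7 CPM (179 to 222) in the control, a log2 ratio of -0.71 (-0.99 to -0.44), and in the *Aass* cluster at 121 CPM (97.4 to 147) in the NASH library, against 179 CPM (146 to 216) in the control, a log2 ratio of -0.57 (-0.98 to -0.15), just short of the limit. When the endothelial cells were clustered again, the direction was kept and the ratio was short of 1.5-fold in the subclusters led by *Msr1* (160.4 CPM in NASH, against 221 CPM in the control), *Gm10600* (98.4 CPM in NASH, against 123 CPM in the control) and *8430408G22Rik* (127 CPM in NASH, against 158 CPM in the control), with log2 ratios of -0.45 (-0.90 to -0.05), -0.33 (-0.96 to 0.34) and -0.37 (-1.16 to 0.67). Cells of the *Gja5* cluster gave 18 of 54 NASH and 25 of 403 control *Adgrg1* UMIs of the *Msr1*-led subcluster. Its ratio is thus not one of LSECs alone. The share of cells at 1000 UMIs was 11.1% (8.81 to 13.7) in NASH and 20.1% (17.1 to 23.3) in control cells of the *Lyve1* cluster, which do not overlap. In the *Aass* cluster it was 12.2% (8.83 to 16.2) of NASH and 14.2% (10.4 to 18.8) of control cells, which do. B cells gave 1.54% (0.187 to 5.45) of NASH and 0.913% (0.249 to 2.32) of control cells. In VECs *Adgrg1* was at 58.1 CPM (44.0 to 75.2) in the NASH library, against 115 CPM (88.3 to 148) in the control, a log2 ratio of -0.99 (-1.54 to -0.45), past the fold. The *Gja5* cluster, which takes a smaller part of NASH VECs, held 41 NASH and 40 control UMIs, 204 CPM (147 to 277) against 198 CPM (142 to 270.3), and a log2 ratio of 0.04 (-0.62 to 0.71). The *Bmp4* cluster held 16 NASH and 21 control UMIs, 20.5 CPM (11.7 to 33.3) against 64.2 CPM (39.8 to 98.2), too few for the rule on 50 UMIs. The *Gja5* cluster thus did not show the lower *Adgrg1* of NASH VECs. The *Bmp4* cluster had that direction, but on UMIs short of the rule. The smaller share of *Gja5* cells among NASH VECs also stands beside the ratio of the class, and the difference between these clusters was not tested.

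*Adgrg6* encodes GPR126, a receptor for collagen IV that is needed for myelination by Schwann cells. In endothelium it was almost restricted to the *Gja5* cluster, with 104 UMIs, 518 CPM (424 to 628), in the NASH library, against 159 UMIs, 789 CPM (671 to 922), in the control. The *Bmp4* cluster held 19 NASH and 7 control UMIs, 24.3 and 21.4 CPM. The *Lyve1* cluster of LSECs held 1 NASH and 11 control UMIs, and the *Aass* cluster 7 NASH and 8 control UMIs. The *Gja5* cluster thus held 104 of 131 NASH and 159 of 185 control UMIs of *Adgrg6* in endothelium. In the VECs as a class the log2 ratio of NASH to control was -1.32 (-1.67 to -0.98), with 125 CPM in the NASH and 314 CPM in the control library, while within the *Gja5* cluster it was -0.60 (-0.98 to -0.24). The smaller share of *Gja5* cells among NASH VECs stands beside this difference. At 1000 UMIs per cell *Adgrg6* was detected in 35.7% (26.3 to 46.0) of NASH and 41.6% (30.4 to 53.4) of control cells of the *Gja5* cluster, and those intervals overlap. Its log2 ratio in these thinned counts was -0.16. B cells held 0 UMIs among 194 NASH cells, which allows a share of cells with a UMI of up to 1.55% (3 counts over these cells), and 1 UMI among 627 control cells.

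**Figure D2:**
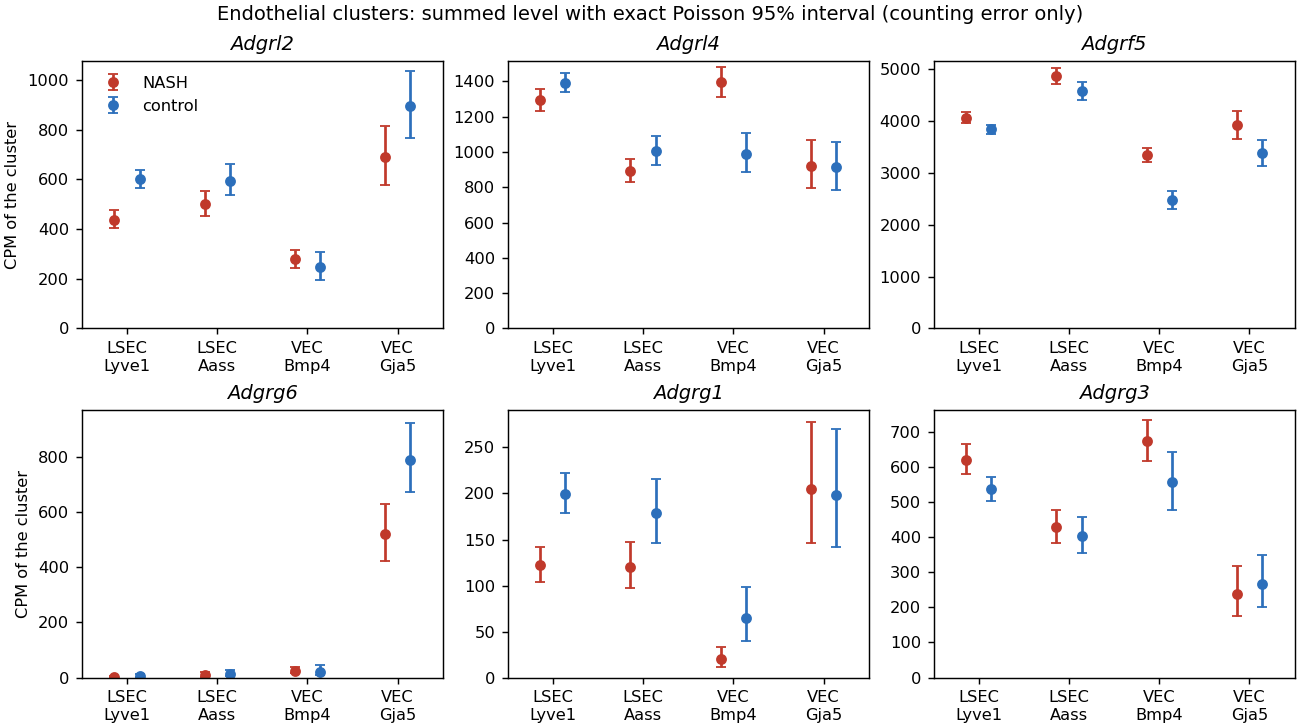
Level in CPM (vertical axis, from 0) of the endothelial members in the 4 endothelial clusters, NASH left of control; bars are exact 95% Poisson intervals for counting error. *Adgrg6* stands at 518 CPM in NASH and 789 CPM in control cells of the *Gja5* cluster and near 0 in the others, and *Adgrg1* is lower in NASH cells of both LSEC clusters.

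Of the 7 members with at least 50 UMIs in LSECs, none was 1.5-fold or more higher in NASH, against 4.72% of the 6230 genes measured there, and 2 (*Adgrg1* and *Adgre1*) were lower, against 5.91%. Of 7 in VECs none was higher, against 7.24% of 4629 genes, and 2 (*Adgrg6* and *Adgrg1*) were lower, against 7.3%. By cluster, 2 of 7 were lower in the *Lyve1* cluster (again *Adgrg1* and *Adgre1*), against 6.08% of genes, and none was higher, against 5.35%. In the *Aass* cluster none of 6 was higher or lower, against 5.63% and 5.91% of genes. In the *Bmp4* cluster none of 5 was higher or lower, against 9.5% and 8.99%. In the *Gja5* cluster 1 of 7 (*Adgrg6*) was lower, against 7.41%, and none was higher, against 7.47%. With 5 to 7 members measured, 1 or 2 calls are few, and nothing particular to the family is read from them. The median log2 ratio over all genes lay at -0.01 in LSECs and -0.0037 in VECs.

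The 1904 NASH and 1415 control endothelial cells were also clustered again, into 7 unnamed subclusters. The *Gja5*-led subcluster (55 NASH, 27 control cells) carried *Adgrg6* at 784 CPM in NASH, against 1404 CPM in the control, *Adgrg1* at 208 against 199 CPM, and *Adgrl2* at 728 against 914 CPM. The subcluster with most VEC markers (282 NASH, 138 control cells) had *Adgrg1* at 27.3 CPM in NASH and 81.9 CPM in control cells. These values come from the cells of the VEC clusters and are not independent of them. The subcluster led by *Msr1* held 23 NASH and 70 control UMIs of *Adgrg6*, 68.3 CPM against 38.4 CPM, and of these 20 NASH and 53 control UMIs lay in cells of the *Gja5* cluster (45 NASH, 52 control cells). These cells also gave 30 of its 119 NASH and 42 of its 865 control UMIs of *Adgrg3*. Of *Adgrl2* they gave 57 of 211 NASH and 111 of 1162 control UMIs. The ratios of this subcluster are thus not those of LSECs alone. The 3 largest subclusters were those led by *Msr1* (200 NASH, 802 control cells), *Gm10600* (630 NASH, 269 control cells) and *8430408G22Rik* (691 NASH, 42 control cells). The *Lyve1* cluster gave 525 of its 698 control cells to the one led by *Msr1* and 553 of its 735 NASH cells to the one led by *8430408G22Rik*, so that library and cell type cannot be told apart there. Per cell thinned to 1000 UMIs (996 of 1537 NASH and 947 of 1236 control LSECs), LSECs held UMIs of a median of 3 members in both libraries. At least 3 members were found in 58.4% of NASH and 62.3% of control LSECs, in 58.1% of NASH and 51.2% of control VECs, and in 9.77% of NASH and 4.71% of control Kupffer cells.

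Each endothelial member was also set against *Adgrf5* in the same cells. In LSECs the UMIs of *Adgrl4* per 100 *Adgrf5* UMIs were 26.4 (25.2 to 27.6) in the NASH and 32.1 (30.8 to 33.4) in the control library, and in B cells 24.6 (13.6 to 42.4) in the NASH and 32.4 (24.1 to 42.9) in the control library. For *Adgrg3* they were 12.7 (11.9 to 13.5) in the NASH and 12.5 (11.7 to 13.3) in the control library for LSECs, and 21.7 (11.5 to 38.4) in the NASH and 13.7 (8.90 to 20.4) in the control library for B cells. *Adgrl2* had 10.6 (9.91 to 11.3) in the NASH and 14.9 (14.1 to 15.8) in the control library for LSECs, and 11.6 (4.81 to 24.1) in the NASH and 11.8 (7.37 to 18.0) in the control library for B cells. *Adgrg1* had 2.79 (2.46 to 3.15) in the NASH and 4.82 (4.38 to 5.30) in the control library for LSECs, and 7.25 (2.28 to 17.7) in the NASH and 4.90 (2.32 to 9.20) in the control library for B cells. For each of these members, in each library, the interval of B cells held the value of LSECs. Several of these intervals are wide and would hold many other values. That of *Adgrg1* in NASH B cells rests on 5 UMIs. The endothelial clusters also differed, with *Adgrg3* in the NASH library at 8.83 in the *Aass*, 20.2 in the *Bmp4* and 6.11 in the *Gja5* cluster. Where the UMIs of B cells came from was not tested.

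Some leukocytes departed from the ratios of LSECs. NASH neutrophils had 36.2 (20.9 to 60.6) *Adgrg3* UMIs per 100 *Adgrf5* UMIs and control neutrophils 132 (93.1 to 189), against 12.7 in NASH and 12.5 in control LSECs. By level, neutrophils held *Adgrg3* at 114 CPM (70.6 to 174) in the NASH library, against 110.4 CPM (87.2 to 138) in the control, a log2 ratio of 0.07 (-0.72 to 0.76), from 21 NASH and 78 control UMIs. In the *Cxcr2* cluster of neutrophils it was found in 6.35% of NASH and 7.43% of control cells at 1000 UMIs. So *Adgrg3* stood above the LSEC ratio in neutrophils of both libraries, at a level under that of every endothelial cluster. The NASH interval overlapped that of B cells and that of the *Bmp4* cluster, at 20.2 (18.4 to 22.2). *Adgrl4* per 100 *Adgrf5* UMIs was also above the LSEC value in control neutrophils, at 61.0 (39.2 to 93.9) against 32.1. In NASH neutrophils it was at 31.0 (17.2 to 53.4) against 26.4, within counting error. NK cells and ILC1 (the innate lymphoid cells most like them) held 5 NASH and 17 control UMIs of *Adgrg3*. Per 100 *Adgrf5* UMIs this was 20.8 (6.21 to 55.7) in the NASH and 73.9 (37.1 to 145) in the control library. *Adgrg6* showed the same kind of departure in Kupffer cells. Its UMIs per 100 *Adgrf5* UMIs were 9.57 (6.60 to 13.5) in the NASH and 21.9 (16.6 to 28.6) in the control library, against 0.0858 in the NASH and 0.203 in the control library in LSECs. The *Gja5* cluster had 13.2 (10.7 to 16.3) in the NASH and 23.4 (19.5 to 27.8) in the control library. Kupffer cells held 36 NASH and 68 control UMIs of *Adgrg6*, a log2 ratio of -0.47 (-1.10 to 0.12), within counting error. It was found in 6.07% of NASH and 9.78% of control Kupffer cells before thinning, at median depths of 4557 and 6143 UMIs, and in 2.27% (1.10 to 4.14) of NASH and 1.71% (0.742 to 3.35) of control cells at 1000 UMIs. Conventional dendritic cells held 11 NASH and 12 control UMIs, 20.3 CPM in NASH and 22.9 CPM in the control. Per 100 *Adgrf5* UMIs this was 19.6 (9.28 to 37.9) in the NASH and 31.6 (15.0 to 61.7) in the control library. Monocytes and monocyte-derived macrophages held 17 NASH UMIs, at 10.3 (5.86 to 17.0), and 1 control UMI, at 2.63 (0.0649 to 15.6). Neutrophils held no *Adgrg6* UMI in either library, which allows up to 16.3 CPM (3 UMIs) in NASH and 4.24 CPM in the control. *Adgrg1* was high in cholangiocytes, the bile duct epithelium, at 195 CPM (133 to 277) in the NASH library, against 199.9 CPM (143 to 272) in the control, a log2 ratio of -0.03 (-0.76 to 0.68). These cells also held *Adgrg6*, with 13 UMIs, 81.9 CPM, in 35 NASH cells and 21 UMIs, 105 CPM, in 44 control cells. In neutrophils *Adgrg1* had 1 UMI in NASH and 32 UMIs in control cells, but those of the control lay in 7 of 454 cells, with up to 11 UMIs in 1 of them.

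**Figure D3:**
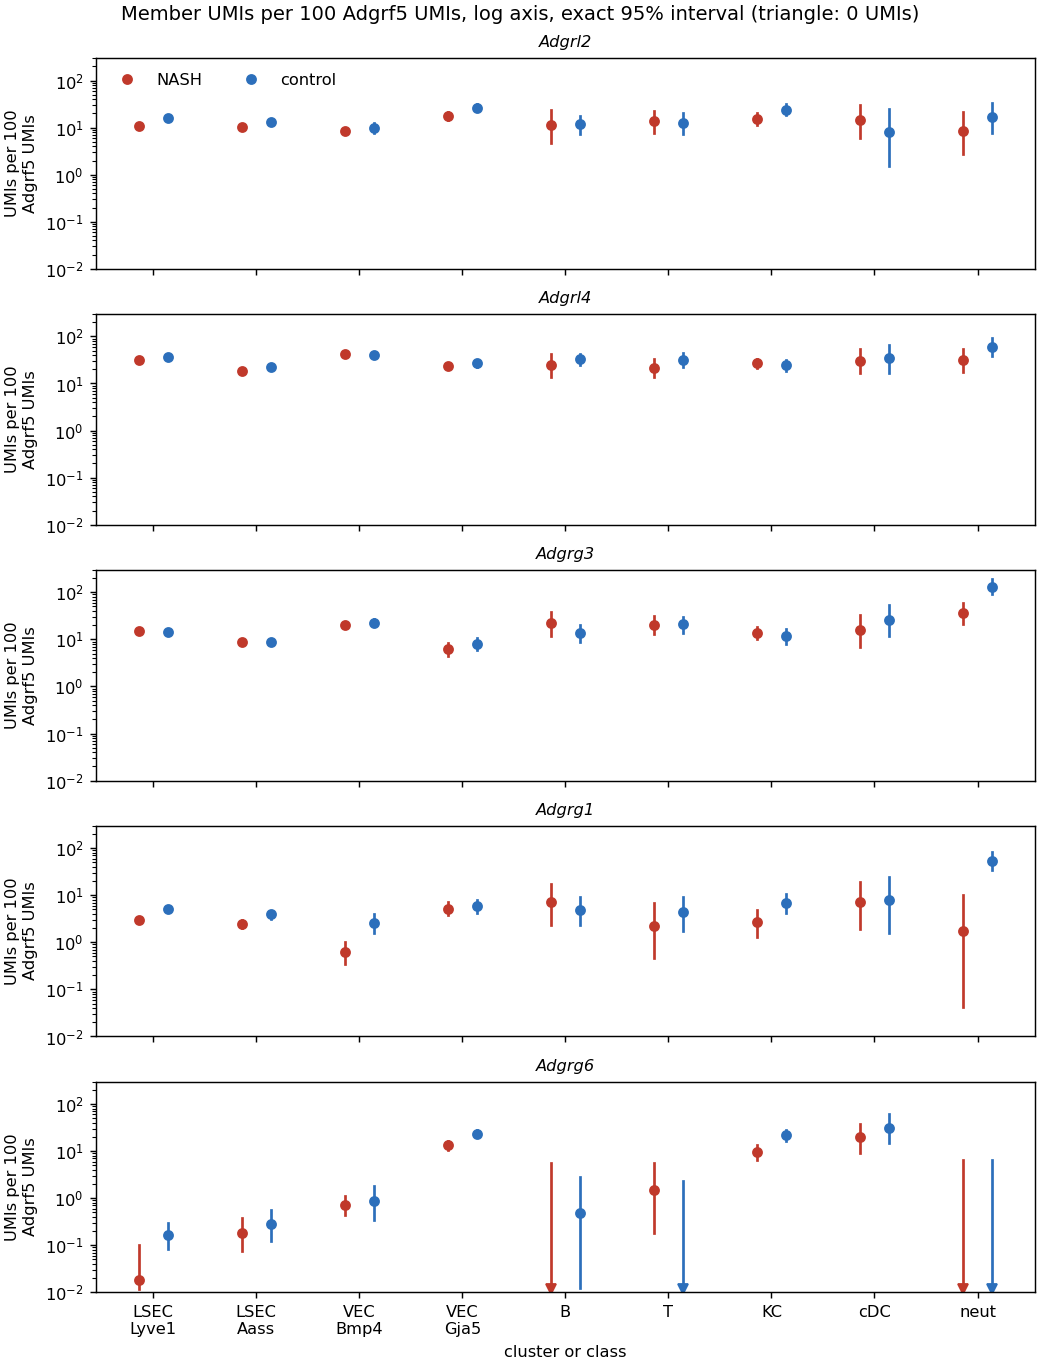
UMIs of *Adgrl2*, *Adgrl4*, *Adgrg6*, *Adgrg1* and *Adgrg3* per 100 *Adgrf5* UMIs (log axis) by class or cluster, NASH left of control; bars are exact 95% intervals, drawn no lower than the foot of the axis, and a triangle marks 0 UMIs. *Adgrg3* in control neutrophils, at 132, and *Adgrg6* in the *Gja5* cluster, in Kupffer cells and in conventional dendritic cells stand above the LSEC values.

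*Adgre1* encodes the classical mouse macrophage surface antigen and was carried by Kupffer cells. It was at 1683 CPM (1631 to 1737) in the NASH library, against 1624 CPM (1579.9 to 1669) in the control, a log2 ratio of 0.05 (-0.01 to 0.11), and was detected at 1000 UMIs in 72.3% (67.8 to 76.4) of NASH and 74.1% (69.9 to 78.0) of control cells. LSECs, which should lack it, gave 3.11% (2.12 to 4.39) of NASH and 2.11% (1.29 to 3.24) of control cells, and the medians before thinning were 4557 NASH and 6143 control UMIs in Kupffer cells. Its level in the resident macrophages thus did not differ between diets beyond counting error. In monocytes and monocyte-derived macrophages it was at 615 CPM (575 to 658) in the NASH library, against 513 CPM (443 to 590.2) in the control, a log2 ratio of 0.26 (0.04 to 0.50), under the level of Kupffer cells in both libraries. These cells numbered 317 in the NASH and 102 in the control library. An unnamed cluster led by the angiotensin-converting enzyme gene *Ace* (40 NASH and 50 control cells) held 43 NASH and 34 control UMIs, 496 CPM (359 to 668) against 296 CPM (205 to 414). Neutrophils were at 76.0 CPM (41.5 to 127) in NASH and 90.6 CPM (69.7 to 116) in the control.

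In LSECs *Adgre1* was past the fold, with 69 UMIs, 32.2 CPM (25.1 to 40.8), in the NASH and 127 UMIs, 54.6 CPM (45.5 to 64.9), in the control library, a log2 ratio of -0.76 (-1.21 to -0.33). This direction did not hold. Of the control UMIs of the *Lyve1* cluster, 40 of 114 came from 1 cell. Without the cells that held a UMI of the Kupffer cell genes *Clec4f*, *Cd5l* or *Cd163*, which left 64.7% of NASH and 72.7% of control LSECs, *Adgre1* was at 29.6 CPM (39 UMIs) in NASH and 13.3 CPM (21 UMIs) in the control, a log2 ratio of 1.13. Per 100 UMIs of these 3 genes, the UMIs of *Adgre1* in LSECs were 9.29 (7.15 to 11.9) in the NASH and 11.4 (9.40 to 13.7) in the control library, and in Kupffer cells 9.82 (9.51 to 10.2) in the NASH and 9.46 (9.19 to 9.73) in the control library. The ratio in LSECs was therefore that of Kupffer cells within counting error. Of all endothelial *Adgre1* UMIs, 14 of 93 in NASH and 94 of 132 in the control lay in a subcluster of 17 NASH and 20 control cells with 5 Kupffer cell markers among its leading genes. All 14 listed Kupffer cell markers had UMIs in LSECs, and summed to 1651 CPM in NASH and 2374 CPM in the control.

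*Adgre5* encodes CD97, a receptor of leukocytes that binds the complement regulator CD55. It was found in every class plotted. In Kupffer cells it was at 650.2 CPM (618 to 684) in the NASH library, against 642 CPM (615 to 671) in the control, a log2 ratio of 0.02 (-0.08 to 0.11), and in neutrophils at 759.8 CPM (639 to 897) in the NASH library, against 673 CPM (614 to 737) in the control, a log2 ratio of 0.18 (-0.11 to 0.45). T cells were at 594 CPM (531 to 663) in the NASH library, against 577 CPM (529 to 629) in the control, a log2 ratio of 0.04 (-0.16 to 0.24). Within the T cells the cluster with *Cxcr6* (52.3% of NASH and 41.99% of control T cells) was the higher, at 799.8 CPM (699 to 911) in the NASH library, against 761 CPM (680.2 to 849.8) in the control, than that with *Cd8b1*, at 369.7 CPM (299 to 452) in the NASH library, against 424 CPM (369 to 485) in the control. NK cells and ILC1 were at 736 CPM (593 to 902) in the NASH library, against 793 CPM (675 to 926) in the control, and B cells were lower, at 253 CPM (193 to 325) in the NASH library, against 265 CPM (230.2 to 303) in the control. None of these classes differed between diets beyond counting error. Monocytes and monocyte-derived macrophages did, at 336 CPM (307 to 368) in the NASH library, against 509.9 CPM (440.4 to 587) in the control, a log2 ratio of -0.60 (-0.85 to -0.35), past the fold. At 1000 UMIs per cell the shares there were 28.2% (23.2 to 33.6) in NASH and 29.9% (21.0 to 40.0) in control cells, which overlap, and the median depths were 4224 and 3635.5 UMIs. In these thinned counts the log2 ratio was -0.27. Conventional dendritic cells had a log2 ratio of -0.31 (-0.63 to -0.0012), from 157 NASH and 189 control UMIs. The *Ace*-led cluster held 979.8 CPM (783 to 1212) in the NASH library, against 941 CPM (772 to 1136) in the control, the highest levels of *Adgre5* in these classes, with intervals that overlap those of the *Cxcr6* cluster. UMIs of *Adgre5* were also counted in LSECs, at 295 CPM (272 to 319) in the NASH library, against 252 CPM (232 to 273) in the control, a log2 ratio of 0.23 (0.06 to 0.39), and it was detected there at 1000 UMIs in 23.2% (20.6 to 25.9) of NASH and 22.2% (19.6 to 25.0) of control cells. Cholangiocytes were lower, at 94.5 CPM (52.9 to 156) in NASH and 115 CPM (72.9 to 172) in the control, with UMIs in 5.71% (0.700 to 19.2) of NASH and 14.3% (5.43 to 28.5) of control cells at 1000 UMIs. No listed class is known to lack *Adgre5*, so its shares have no background, and whether the UMIs in LSECs are their own RNA was not tested.

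**Figure D4:**
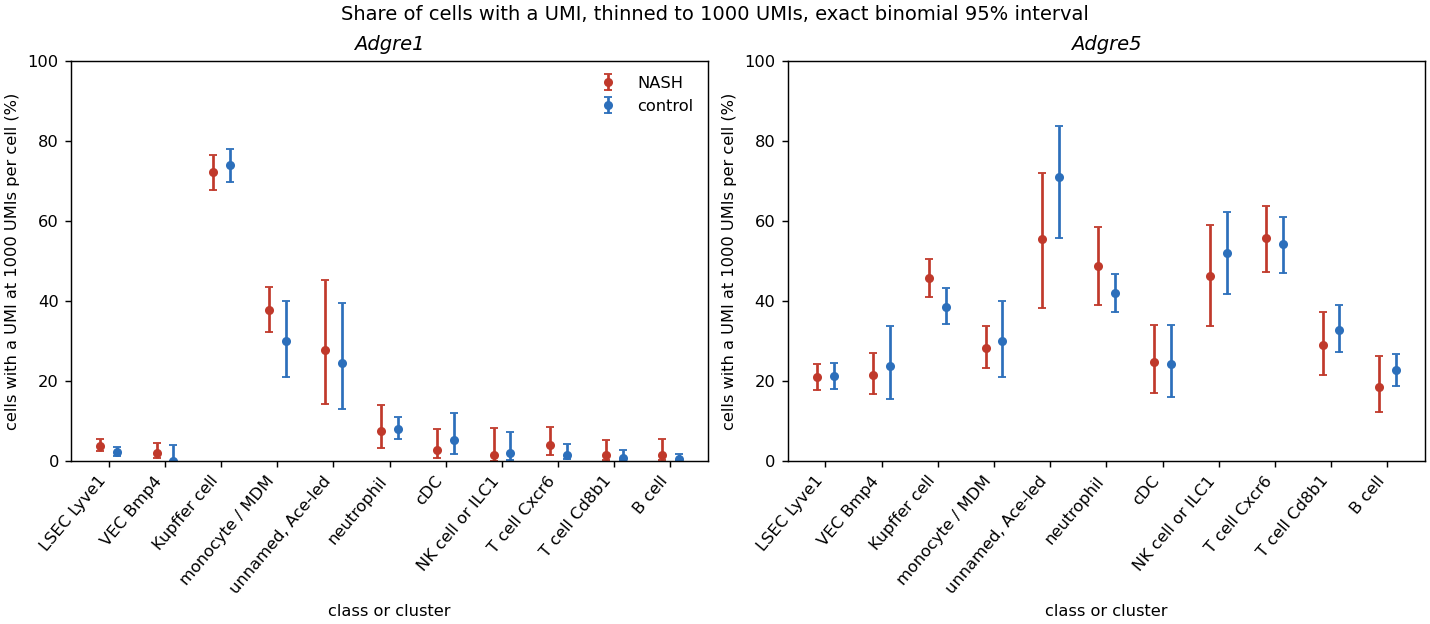
Share of cells with a UMI of *Adgre1* (left) and *Adgre5* (right), in percent, for cells of at least 1000 UMIs thinned to 1000 UMIs, NASH left of control in each class; bars are exact binomial 95% intervals. *Adgre1* is found in 72.3% of NASH and 74.1% of control Kupffer cells, and *Adgre5* in every class shown.

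UMIs of the endothelial members were also counted in leukocytes. In Kupffer cells 3 of 7 members were past the fold and higher in NASH, against 5.47% of the 6219 genes measured there, and none was lower, against 3.31%. They were *Adgrl4* at 43.0 CPM in the NASH library, against 23.5 CPM in the control, *Adgrf5* at 159.9 CPM in the NASH library, against 97.3 CPM in the control and *Adgrg3* at 22.1 CPM in the NASH library, against 11.3 CPM in the control, with log2 ratios of 0.86 (0.42 to 1.32), 0.72 (0.50 to 0.94) and 0.96 (0.33 to 1.62). The 15 LSEC markers summed to 8708 CPM in NASH and 8519 CPM in control Kupffer cells, and their part in the result was not tested. Among the 50 leading genes of the Kupffer cell cluster 1 was a listed LSEC marker. The sum thus does not measure endothelial RNA alone. In neutrophils *Adgrf5* and *Adgrl4*, 2 of 5 members, were higher, against 19.8% of 2353 genes, and none was lower, against 19.8%. *Adgrf5* was at 315 CPM in the NASH library, against 83.5 CPM in the control, a log2 ratio of 1.92 (1.37 to 2.46), and *Adgrl4* at 97.7 CPM in the NASH library, against 50.9 CPM in the control, a log2 ratio of 0.96 (0.04 to 1.79) that was 0.20 in thinned counts. LSEC markers in neutrophils, all 15 with UMIs, summed to 4608 CPM in NASH and 1396 CPM in the control, and their part was not tested. The *Acod1* cluster made up 48 of 119 NASH and 14 of 454 control neutrophils. In monocytes and monocyte-derived macrophages *Adgrl4* was higher, 1 of 4 members against 12.3% of 4459 genes, and *Adgre5* was lower, 1 of 4 against 14.8%. *Adgrl4* there had 48 UMIs in NASH and 3 in the control, a log2 ratio of 1.87 (0.44 to 4.40).

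No member was past the fold in T cells, B cells, NK cells and ILC1 or conventional dendritic cells. Plasma cells (6 NASH cells) and plasmacytoid dendritic cells (25 NASH cells) were not compared between diets. Of 4 members measured in T cells none was higher or lower, against 5.53% and 5.56% of 4500 genes. Of 3 in B cells none was, against 6.37% and 7.32% of 3609 genes. The 1 member measured in NK cells and ILC1, *Adgre5*, had a log2 ratio of -0.11 (-0.49 to 0.27), where 7.81% of 1395 genes were higher and 6.52% lower. Of 2 in conventional dendritic cells none was past the fold, where 6.73% of 3448 genes were higher and 6.21% lower.

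**Figure D5:**
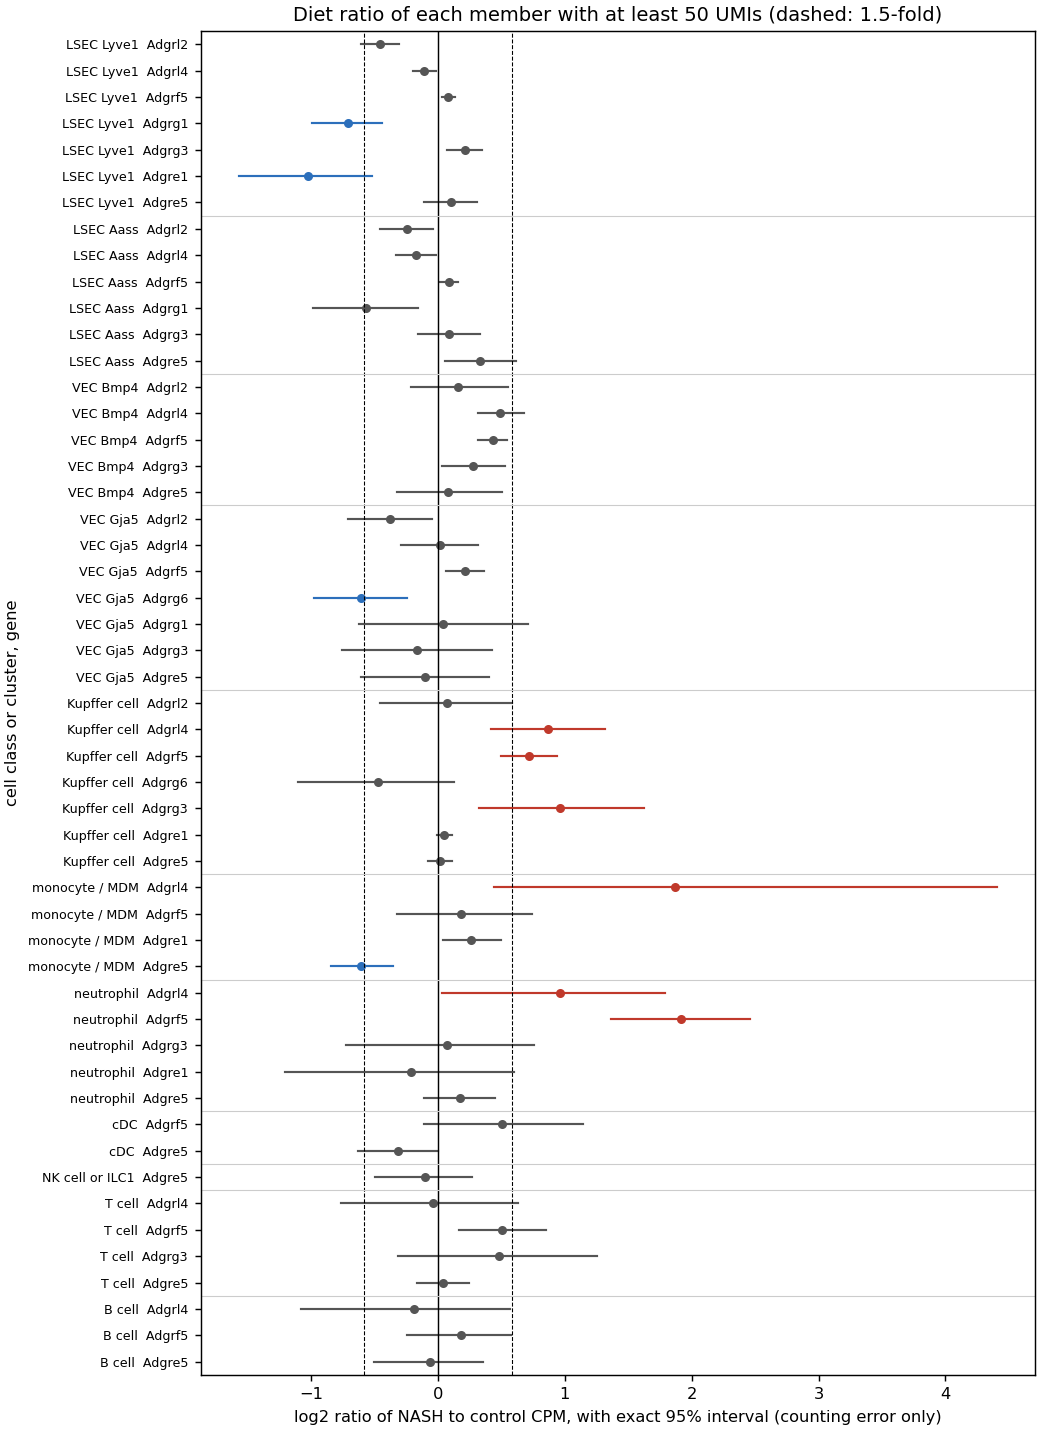
Log2 ratio of NASH to control CPM (horizontal axis) of the members with at least 50 UMIs in a class or cluster, one row each; bars are exact 95% intervals for counting error, and points past 1.5-fold are coloured red where higher in NASH and blue where lower. *Adgrg1* lies at -0.71 in the *Lyve1* cluster, *Adgrg6* at -0.60 in the *Gja5* cluster, and *Adgre1* at 0.05 in Kupffer cells.

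Of the other 21 family genes with counts, 9 had at least 50 UMIs over all kept cells and 12 had fewer. *Adgre4*, a close relative of *Adgre1* found in macrophages, was measured beside it. In Kupffer cells it was at 546 CPM (517 to 577) in the NASH library, against 689 CPM (661 to 719) in the control, a log2 ratio of -0.34 (-0.44 to -0.24). The level in monocytes and monocyte-derived macrophages was 232 CPM (207 to 258) in the NASH library, against 359 CPM (301 to 424) in the control, a log2 ratio of -0.63 (-0.92 to -0.33). In both it was the lower in NASH beyond counting error, while *Adgre1* was not. The *Ace*-led cluster held 1303 CPM in the NASH library, against 1246 CPM in the control. *Adgrl1*, which encodes latrophilin-1, was held by LSECs at 179 CPM (162 to 198) in the NASH library, against 126 CPM (112 to 141) in the control, a log2 ratio of 0.51 (0.29 to 0.73), with the NASH level the higher where that of *Adgrl2* was the lower. *Adgra2*, a co-receptor of WNT signalling in brain vessels, was held by LSECs at 159.6 CPM (143 to 177) in the NASH library, against 165 CPM (148 to 182) in the control, a log2 ratio of -0.04 (-0.26 to 0.17). *Adgrg5* was found in NK cells and ILC1 with 22 NASH and 30 control UMIs, and in T cells at 114 CPM in the NASH library, against 116 CPM in the control, a log2 ratio of -0.02 (-0.50 to 0.44). In LSECs *Adgra3* was at 41.5 CPM in the NASH library, against 33.1 CPM in the control. *Adgrd1* in the *Bmp4* cluster rested on 17 UMIs in 5 NASH cells and 48 UMIs in 8 control cells. *Celsr1* had 34 NASH and 27 control UMIs in T cells, a log2 ratio of 1.09 (0.33 to 1.88), but its levels there at 1000 UMIs per cell were 41.96 CPM in NASH and 32.5 CPM in the control, a smaller difference. *Celsr2* had 9 NASH and 23 control UMIs in cholangiocytes, and *Adgrl3* had 79 UMIs over all cells.

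Known ligands and partners of the receptors form a list of 24 genes, named with earlier results of these data known. In LSECs 13 were measured, of which 1 was higher (4.72% of all genes were) and 2 were lower past the fold (5.91% of all genes), with a median log2 ratio of -0.01 beside -0.01 over all genes. *Cd55*, the ligand of the *Adgre5* product, was at 1004 CPM in the NASH library, against 1576 CPM in the control, a log2 ratio of -0.65 (-0.73 to -0.57). *Itga5*, an integrin chain, was at 350.1 CPM in the NASH library, against 204 CPM in the control, a log2 ratio of 0.78 (0.61 to 0.95). *Flrt2*, a ligand of latrophilins, had 32 NASH and 62 control UMIs, a log2 ratio of -0.82. *Col4a2*, a chain of collagen IV, which the *Adgrg6* product binds, was at 992 CPM in the NASH library, against 671 CPM in the control, a log2 ratio of 0.56 (0.47 to 0.66), short of 1.5-fold. In VECs 11 were measured, 1 was higher (7.24% of all genes) and 4 were lower (7.3% of all genes), with a median of 0.10 beside -0.0037. *Flrt2* was at 134 CPM in the NASH library, against 282 CPM in the control, a log2 ratio of -1.07 (-1.42 to -0.72). It is among the leading genes of the *Gja5* cluster, which takes a smaller part of NASH VECs. Within that cluster its log2 ratio was -0.16 (-0.68 to 0.34), and within the *Bmp4* cluster it was at 88.3 CPM in the NASH library, against 239 CPM in the control, a log2 ratio of -1.43 (-1.92 to -0.95). *Dag1*, the dystroglycan gene, was at 295 CPM in the NASH library, against 448 CPM in the control, a log2 ratio of -0.60 (-0.85 to -0.35), and *Itga5* at 269 CPM in the NASH library, against 159 CPM in the control, a log2 ratio of 0.75 (0.40 to 1.13). *Col3a1*, the collagen that the *Adgrg1* product binds, had 8 NASH and 78 control UMIs in VECs, but those of the control lay in 5 cells, with 34 in 1 of them.

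In Kupffer cells 3 of 9 ligands and partners were higher (5.47% of all genes) and none lower (3.31% of all genes), with a median of 0.30 beside -0.0032 over all genes. *Col4a1* was at 72.3 CPM in the NASH library, against 25.7 CPM in the control, a log2 ratio of 1.49 (1.10 to 1.89), and *Col4a2* and the tetraspanin gene *Cd9* had log2 ratios of 1.64 and 0.73. In monocytes and monocyte-derived macrophages 4 of 9 were higher (12.3% of all genes) and none lower (14.8% of all genes), with a median of 0.15 beside -0.06. *Cd9* was at 582 CPM in the NASH library, against 101 CPM in the control, a log2 ratio of 2.51 (2.06 to 3.04), found in 157 of 317 NASH and 26 of 102 control cells. *Cd9* was also a listed marker of that class. The others were *Col4a1*, *Col4a2* and *Itga5*, at 2.07, 1.32 and 0.99. In T cells 1 of 7 was higher (5.53% of all genes), *Col4a2* at 1.44. Collagen IV genes are also genes of endothelium. In neutrophils 4 of 5 were higher and none lower, beside 19.8% of all genes in each direction, with *Cd9* at 2334 CPM in the NASH library, against 518 CPM in the control, a log2 ratio of 2.17 (1.97 to 2.38), and *Cd81* and *Itgb1* at 1.73 and 1.71. The *Acod1* cluster made up 48 of 119 NASH and 14 of 454 control neutrophils, and its part in these differences was not tested.

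G proteins and the effectors next to them form a list of 33 genes. None of 21 measured in LSECs and none of 20 in VECs was past the fold. Over all genes few were, with 4.72% higher and 5.91% lower in LSECs and 7.24% higher and 7.3% lower in VECs. The counts of 0 lie under these shares, but few calls would fall on a list of this length, and nothing is read from them. The list had medians of 0.02 and -0.07 beside -0.01 and -0.0037 over all genes. In LSECs the G protein receptor kinase gene *Grk2* was at 248 CPM in the NASH library, against 178 CPM in the control, a log2 ratio of 0.48 (0.29 to 0.67), and *Arhgef1* had a log2 ratio of 0.43. Of 23 in Kupffer cells 1 was higher (5.47% of all genes), the adenylate cyclase gene *Adcy3*, at 41.7 CPM in the NASH library, against 13.8 CPM in the control, a log2 ratio of 1.58 (1.07 to 2.14). Of 18 in monocytes and monocyte-derived macrophages 1 was higher (12.3% of all genes), *Gna13* at 0.76, and 3 were lower (14.8% of all genes), *Arhgef12*, *Grk6* and *Arhgef1* at -0.82, -0.76 and -0.74. None of 15 in T cells was past the fold. Of 13 in neutrophils 3 were higher and 2 lower, beside 19.8% of all genes in each direction, with *Gna13* at 885 CPM in the NASH library, against 311 CPM in the control, a log2 ratio of 1.51 (1.21 to 1.81). Here too the *Acod1* cluster made up a larger part of NASH neutrophils, and its part in these differences was not tested.

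For each member, the 5 genes most alike in their levels over cell classes were taken from 7120 genes, by the lower of the Pearson correlations of the NASH library (13 classes) and the control library (14 classes) on the log2 scale of CPM + 10. The classes share a library and are not independent points, so these values describe and test nothing. Beside *Adgrf5* stood *Ehd3* (0.99), *Aqp1* (0.99), *Kdr* (0.98), *Ptprb* (0.98), *Gpihbp1* (0.98). These are endothelial genes, with *Kdr* coding for the VEGF receptor. Beside *Adgrl4* stood *Aqp1* (0.97), *Oit3* (0.96), *Gpr182* (0.96), *Adgrf5* (0.96), *Npr1* (0.96), so that *Adgrf5* itself was among them. Beside *Adgrg3* stood *Adgrl4* (0.93), *Emcn* (0.92), *Mcam* (0.91), *Arap3* (0.91), *Calcrl* (0.90). Between *Adgrl4* and *Adgrf5* r was 0.98 in the NASH and 0.96 in the control library, and between *Adgrl4* and *Adgrg3* 0.97 and 0.93. *Adgrl2* stood beside *Ephb4* (0.95), *Cd59a* (0.93), *Col4a1* (0.93), *Map1b* (0.93), *Cda* (0.93), of which *Ephb4* encodes an ephrin receptor. *Adgrg1* stood beside *Phldb2* (0.92), *Nrep* (0.91), *Npdc1* (0.91), *Nfib* (0.91), *Pdgfd* (0.90), and *Adgrg6* beside *Gas1* (0.90), *C1s1* (0.90), *Fstl1* (0.89), *Gpm6a* (0.88), *Fmo2* (0.87). The VECs entered as a single class, so these values do not separate the *Bmp4* from the *Gja5* cluster. *Fmo2* was a leading gene of the *Bmp4* cluster, which held little *Adgrg6*, so likeness within VECs is not read. The neighbouring genes *Adgrg1* and *Adgrg3* had r of 0.49 and 0.52. *Adgre1* stood beside *Csf1r* (0.92), *Fcgr4* (0.90), *Fcgr1* (0.90), *4930455G09Rik* (0.89), *Pla2g4a* (0.88), of which *Csf1r* is the receptor that macrophages need for survival, and *Fcgr4* and *Fcgr1* are receptors for antibodies. *Adgre5* had the weakest likeness, to *Lcp2* (0.87), *Rab8b* (0.83), *Cap1* (0.82), *Gsdmd* (0.82), *Gadd45g* (0.79), and r between *Adgre1* and *Adgre5* was 0.46 in each library.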

How the data were processed

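UMI counts per gene and cell were deposited by the authors, who captured NPCs on the BD Rhapsody platform (a label field names another platform), and made the counts with its whole transcriptome pipeline on GRCm38, without normalization. The gene columns analysed end before the mitochondrial genes, so the study's mitochondrial limit was not applied. The NASH table has no header and its columns were named in the order of the control table. With this order the profile of each of the 8 members over 13 classes correlated more with its own control column (r 0.86 to 0.97) than with the 3 columns to either side. Columns of other samples numbered 0.

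Clustering used Seurat 5.3.0 in R 4.3.3 with 2000 variable genes, 50 principal components and a resolution of 0.6. A class needed at least 3 of its markers among 50 leading genes. UMIs were summed per class and library, and ratios had 0.5 UMI added. Scrublet (Scanpy 1.11.5) called 3 of 3710 NASH and 52 of 4209 control cells doublets. That is under 0.5% in NASH, so the call did not work there, and doublets were kept. Python 3.11.15, NumPy 2.4.6, SciPy 1.17.1 and pandas 2.3.3 gave the values, and the ratio code was tested on simulated data. The members, gene lists and markers were chosen with earlier results of these data known. Named are the members, family genes with at least 50 UMIs, the 5 genes most like each member among those with at least 200 UMIs, and up to 4 genes per list and class.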

Additional observations from a re-analysis of the deposited data

How the results depend on the processing

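With 1 pooled library per diet the spread between mice is unknown, and the design cannot tell diet from library. No paired analysis was possible because each diet has 1 library, and for the same reason no replicate could be left out. The log2 ratios of the members, 65 in all, were recomputed under 11 alternatives. Of 549 values, 513 stayed within the interval of the reported ratio, 27 left it and 9 reversed. A value was called reversed only where its sign changed and the reported ratio was 1.5-fold or more. Sign changes of smaller ratios were counted as within or outside the interval. All 9 reversed values were *Adgre1* in LSECs. In the LSEC class it was 0.72 as a mean of CPM per cell, 0.35 in counts thinned to 1000 UMIs, 0.14 with the receptor genes allowed in the clustering, 1.13 without cells holding a UMI of *Clec4f*, *Cd5l* or *Cd163*, and 0.98 without the subcluster with Kupffer cell markers. In the *Lyve1* cluster it was 0.58, 0.55, 1.11 and 0.91 under the same alternatives but for the clustering, which gave no value there. Leaving out the subcluster was chosen after seeing the data. *Adgrg1* in LSECs kept ratios of -0.64 to -0.72. The split by endothelial subcluster was not among these alternatives. In the largest subclusters, given above, *Adgrg1* kept its direction but was short of 1.5-fold. The one led by *Msr1* also held cells of the *Gja5* cluster.

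The number of members past the fold, 2 in LSECs, became 1 in thinned counts, without doublets or with the receptor genes allowed in the clustering, and 0 at a fold limit of 2. In VECs (2) it became 4 at a resolution of 1 and 1 at a fold limit of 2. In Kupffer cells (3) it became 1 in thinned counts and 0 at a fold limit of 2. In monocytes and monocyte-derived macrophages (2) it became 1 with scaling by the median of ratios, with cells of at least 1000 UMIs or at a fold limit of 2, 0 in thinned counts, and 4 at a minimum of 20 UMIs. In neutrophils (2) it became 1 as a mean per cell, without doublets, with the receptor genes in the clustering or at a fold limit of 2, and 0 in thinned counts. It was 0 in T cells, B cells, and NK cells and ILC1. In T cells it became 1 as a mean per cell or at a minimum of 20 UMIs and 2 without doublets, in B cells 1 without doublets or at a minimum of 20 UMIs, and in NK cells and ILC1 2 at a minimum of 20 UMIs. Thinning leaves fewer members with 50 UMIs, and a minimum of 20 UMIs admits more. For the other alternatives the cause was not tested. Conventional dendritic cells gave no value at a resolution of 0.3.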
